A study of Mus musculus with 32 samples.

Results

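Expression of 28 genes of the oligodendrocyte lineage and of myelin was examined in bulk polyA RNA-seq libraries of 2 brain regions of young mice. The genes are a list of symbols drawn up with earlier results of these data known. All 28 were found among the 56415 genes of the deposited count table and were tested in both regions. They comprise 1 gene of precursor cells (Pdgfra), 4 lineage transcription factors (Olig1, Olig2, Sox10 and Nkx2-2), 3 genes of early, premyelinating cells (Gpr17, Enpp6 and Bcas1) and 20 genes of mature, myelinating cells. Each of 16 C57BL/6J mice gave 1 library of dorsal hippocampus and 1 of vermis, the midline strip of the cerebellum. This makes 32 libraries in 8 groups of 4. Libraries of the 2 regions were matched to a mouse by their group and replicate label. The mice were wild type (WT) or carried a knockout (KO) of Acss2, the gene of an enzyme that turns acetate into acetyl-CoA. Their mothers had received 1 intraperitoneal injection a day of ethanol (3 g per kg as a 20% solution, cPAE) or of saline (cPSE) through pregnancy, and tissue was taken from the offspring at postnatal day 40 to 50. The groups are therefore saline-exposed WT, ethanol-exposed WT, saline-exposed KO and ethanol-exposed KO in each region, each with 2 males (M1 and M3) and 2 females (F1 and F3). The labels name the knockout only as such, with no driver or litter, and the pieces were cut from frozen brain without sorting of cells. Acss2 itself measured 10.8 to 13.8 CPM (counts scaled to the library's total) in KO hippocampus against 51.0 to 64.4 in WT, and 10.6 to 19.8 in KO vermis against 55.1 to 66.7 in WT. Library totals ran from 54092519 to 96664509 counts in hippocampus and from 23085928 to 73803508 in vermis. A gene at 1 CPM therefore rests on 23.1 counts in the shallowest library. Mates of a read pair were counted separately, so these counts come from fewer fragments.

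Oligodendrocytes wrap axons in myelin, the lipid-rich sheath that speeds conduction. They arise from dividing precursors that carry the growth factor receptor PDGFRA, pass through a short premyelinating stage marked by GPR17, ENPP6 and BCAS1, and then switch on myelin proteins and lipid enzymes under the transcription factor MYRF. OLIG1, OLIG2 and SOX10 mark the lineage through all of these stages, and NKX2-2 acts around the start of differentiation. In a bulk library a level depends on the number of oligodendrocytes in the piece and on the RNA each holds, and a change of cell number and a change of RNA per cell cannot be told apart.

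Promoter sequence is a feature that played no part in the choice of the genes, and it is shown here for the members that hold letters known from 2 kinds of factors of the lineage. The RefSeq table of promoters (GRCm38.p6) had windows for 20 of the 28 members, and the 250 bases before each start were searched on both strands. CTGGCAC or CTGGTAC, the core motif known for MYRF, was found in 4 of 20 members (Cnp, Hapln2, Mag and Mog), which is 20.0% against 6.79% of the 27025 genes with a window. AACAAAG, a motif of SOX factors, was found in 2 of 20 (Cnp and Mobp, 10.0%) against 5.77% of all genes. TATAAA, the letters of a TATA box, was searched on the strand of the gene only and was found in 2 of 20 (Gjb1 and Olig2, 10.0%) against 8.94% of all genes. A match in these letters is a description and not a site shown to be bound. In the sequences below, written 5′ to 3′ on the strand of the gene and ending at the base before the start, capitals mark the MYRF and SOX motifs on either strand. Cnp lies at chr11:100574689-100574938 (plus strand), Mag at chr7:30914864-30915113 (minus strand), Hapln2 at chr3:88027512-88027761 (minus), Mog at chr17:37023399-37023648 (minus) and Mobp at chr9:120149492-120149741 (plus).
Cnp: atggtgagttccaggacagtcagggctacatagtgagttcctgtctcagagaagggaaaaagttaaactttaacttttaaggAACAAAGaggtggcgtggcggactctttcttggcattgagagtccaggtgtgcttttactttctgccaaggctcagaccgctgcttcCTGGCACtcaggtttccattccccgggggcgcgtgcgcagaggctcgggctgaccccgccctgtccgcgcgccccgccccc
Mag: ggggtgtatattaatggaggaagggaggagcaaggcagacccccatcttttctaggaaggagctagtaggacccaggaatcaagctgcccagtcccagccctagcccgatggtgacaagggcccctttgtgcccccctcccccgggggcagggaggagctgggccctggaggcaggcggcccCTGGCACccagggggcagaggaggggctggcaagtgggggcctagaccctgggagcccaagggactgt
Hapln2: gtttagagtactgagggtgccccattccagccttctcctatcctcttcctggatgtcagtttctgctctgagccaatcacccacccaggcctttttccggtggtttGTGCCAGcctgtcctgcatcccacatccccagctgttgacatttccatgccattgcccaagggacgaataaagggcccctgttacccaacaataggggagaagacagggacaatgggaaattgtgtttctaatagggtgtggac
Mog: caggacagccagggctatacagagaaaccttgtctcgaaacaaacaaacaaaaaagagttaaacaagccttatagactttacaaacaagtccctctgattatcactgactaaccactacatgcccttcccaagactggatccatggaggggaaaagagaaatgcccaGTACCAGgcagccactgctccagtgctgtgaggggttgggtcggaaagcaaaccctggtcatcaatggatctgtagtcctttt
Mobp: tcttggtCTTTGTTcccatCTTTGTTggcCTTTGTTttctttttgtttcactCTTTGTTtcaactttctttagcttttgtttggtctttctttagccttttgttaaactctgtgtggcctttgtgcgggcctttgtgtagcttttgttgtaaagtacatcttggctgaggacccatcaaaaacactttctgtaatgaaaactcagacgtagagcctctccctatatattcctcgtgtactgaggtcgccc

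Cnp, which encodes a phosphodiesterase of the myelin cytoplasm, was the single member with both motifs in this window, and Mobp, a compact myelin protein, held AACAAAG on the opposite strand 4 times. Mag, an adhesion protein of the sheath next to the axon, has more than 1 start in the table, and the window shown is the one whose motif lies 68 bases before its start. All 5 genes shown belong to the mature stage, as do 16 of the 20 members with a window. Apod and Gjb1, the members that passed between genotypes in vermis, held neither the MYRF nor the SOX motif in their windows, and nor did Pdgfra.

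All 28 genes were detected in every library. Per length of exon, Mbp, the main protein of compact myelin, had the highest level of the members in both regions, at 409 ± 106 RPKM (SD, n = 16) in hippocampus and 251 ± 99.3 in vermis (RPKM, CPM divided by exon length in kilobases). Mobp was next in hippocampus with 234 ± 67.0 RPKM, followed by Mal, a lipid raft protein, with 162 ± 48.6, and Cldn11, the tight junction claudin of myelin, with 151 ± 39.2. In vermis the second highest level was that of Trf, the iron carrier transferrin, with 115 ± 27.3 RPKM, ahead of Mobp with 109 ± 56.2 and Cnp with 94.7 ± 19.3. Mal and Cldn11 in hippocampus, and Trf and Mobp or Mobp and Cnp in vermis, lie closer than their SDs, so the order within these pairs is not resolved. Lowest per length were Nkx2-2 in hippocampus (1.89 ± 0.375 RPKM) and Enpp6, a choline phosphodiesterase of new oligodendrocytes, in vermis (1.78 ± 0.503). Counts of the 28 genes made up 0.486% to 1.43% of a hippocampal library and 0.401% to 1.19% of a vermis library, and Mbp alone gave 38.1% to 44.8% of them.

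Stages differed in how much they varied between hippocampal libraries. Pdgfra ran from 48.6 to 66.2 CPM with a median of 57.5, a highest to lowest ratio of 1.36, and Gpr17, an orphan receptor that holds cells before myelination, from 67.6 to 94.2 CPM, a ratio of 1.39. The 20 mature genes ran over ratios from 2.35 (Myrf, the master regulator of myelin genes) to 3.68 (Gjb1, the gap junction protein connexin 32). Enpp6 (ratio 2.74) and Bcas1 (2.56), also of the early stage, spread as widely as the mature genes and not as narrowly as Gpr17. As a mean of log2 CPM, the mature genes covered 6.32 to 7.83, the early genes 5.62 to 6.67, the lineage factors 4.68 to 5.70 and Pdgfra 5.60 to 6.05. The difference between the mature mean and Pdgfra covered 0.59 to 1.99 on the log2 scale. It was lowest in saline-exposed KO F3 and highest in ethanol-exposed KO F1, and these 2 libraries also had the lowest and the highest mature mean.

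**Figure D1:**
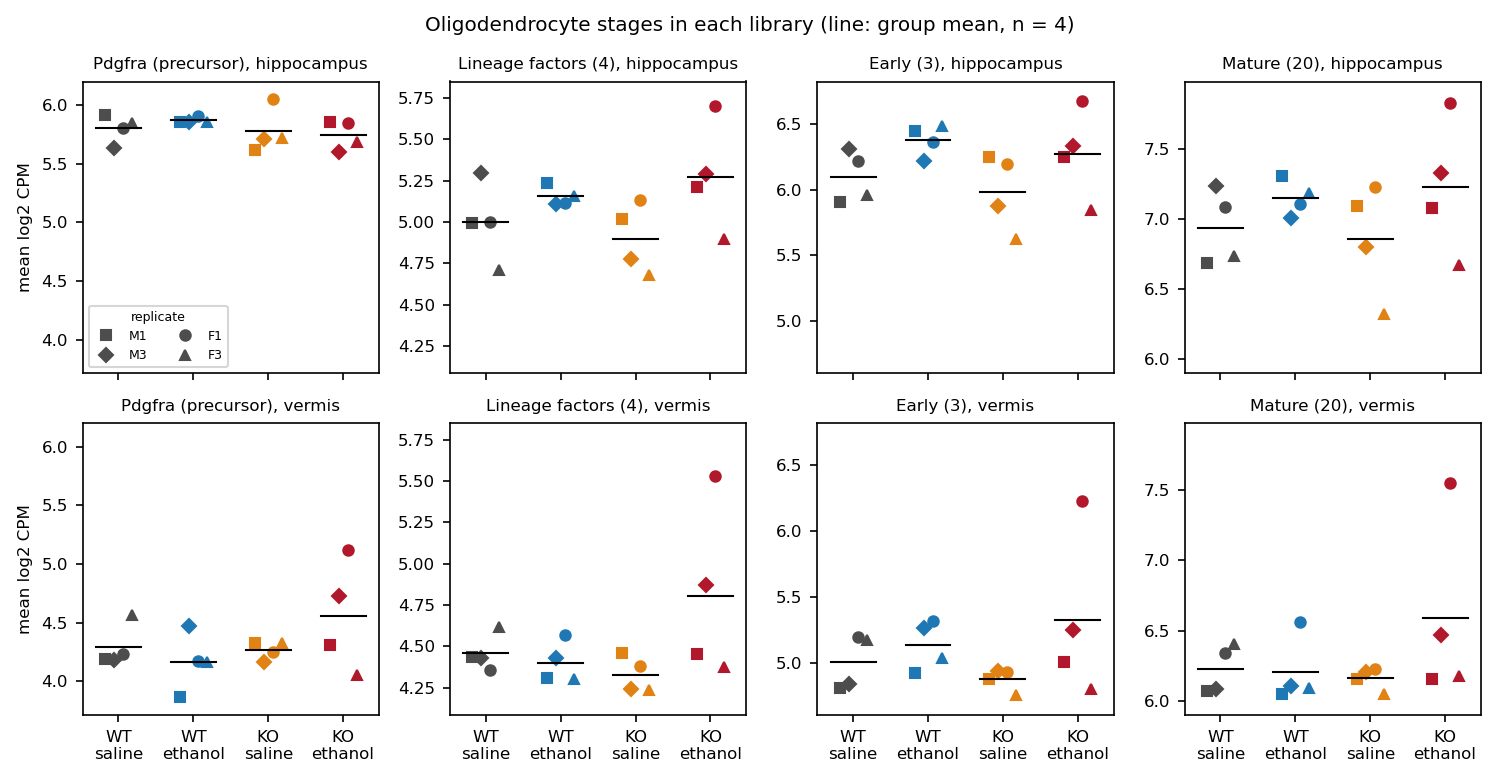
Mean log2 CPM of the genes of each stage (vertical axis) in every library, by group (horizontal axis), for hippocampus (top row) and vermis (bottom row); each point is 1 library, its shape gives the replicate label, and the line is the mean of 4 libraries. Pdgfra stays between 5.60 and 6.05 in hippocampus while the mature mean runs from 6.32 to 7.83, and in vermis ethanol-exposed KO F1 stands above the other libraries at every stage.

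In vermis 1 library, ethanol-exposed KO F1, stood apart in the level of most members. It was the highest of the 16 vermis libraries for 27 of the 28 members, the exception being Nkx2-2, which was highest in ethanol-exposed KO F3. Against the median of the other 15 libraries its members were 2.59-fold higher at the median, from 1.09-fold for Nkx2-2 to 3.69-fold for Opalin, a glycoprotein of the myelin paranode. Pdgfra was 1.85-fold higher there (34.7 against 18.8 CPM), Bcas1 3.11-fold (356 against 114 CPM) and Mbp 2.80-fold (5101 against 1822 CPM). Its mature mean was 7.55 log2 CPM, while the other 15 libraries lay between 6.05 and 6.56. The 20 mature genes were 2.696-fold higher at the median. The difference between mature mean and Pdgfra was 2.43 in it, barely above the 1.63 to 2.39 of the others. Against the mean of 12 further precursor genes, a list used below, its mature mean was 3.09 higher, where the others covered 2.02 to 2.64. Its early mean was 1.77 above the same precursor mean, against 0.79 to 1.40 in the others.

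Markers of other cells differed in this library too. Its cerebellar granule neuron markers averaged 7.49 log2 CPM against 8.38 to 9.49 in the other vermis libraries, and its Purkinje neuron markers 7.91 against 8.63 to 9.24. The 10 markers of each list summed to 1960 and 3698 CPM there, the lowest of the 16 libraries, with none at 0. Its microglia markers averaged 3.81 against 2.31 to 3.28, and its markers of brainstem and deep nuclei neurons, of which up to 5 of 10 were at 0 in a vermis library, averaged 3.09 against -2.37 to 2.67. The hippocampal library of the same mouse had the highest value of 26 of the 28 members among 16, with a mature mean of 7.83, and the lowest level of dentate granule neuron markers (4.82 against 4.90 to 6.34), while saline-exposed KO F3 had the highest. At the other end, saline-exposed KO F3 had the lowest hippocampal value of 22 members, at 0.595-fold of the other libraries at the median. The part of such differences between pieces in the results below was not tested, and values without these libraries are given beside the comparisons they enter.

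**Figure D2:**
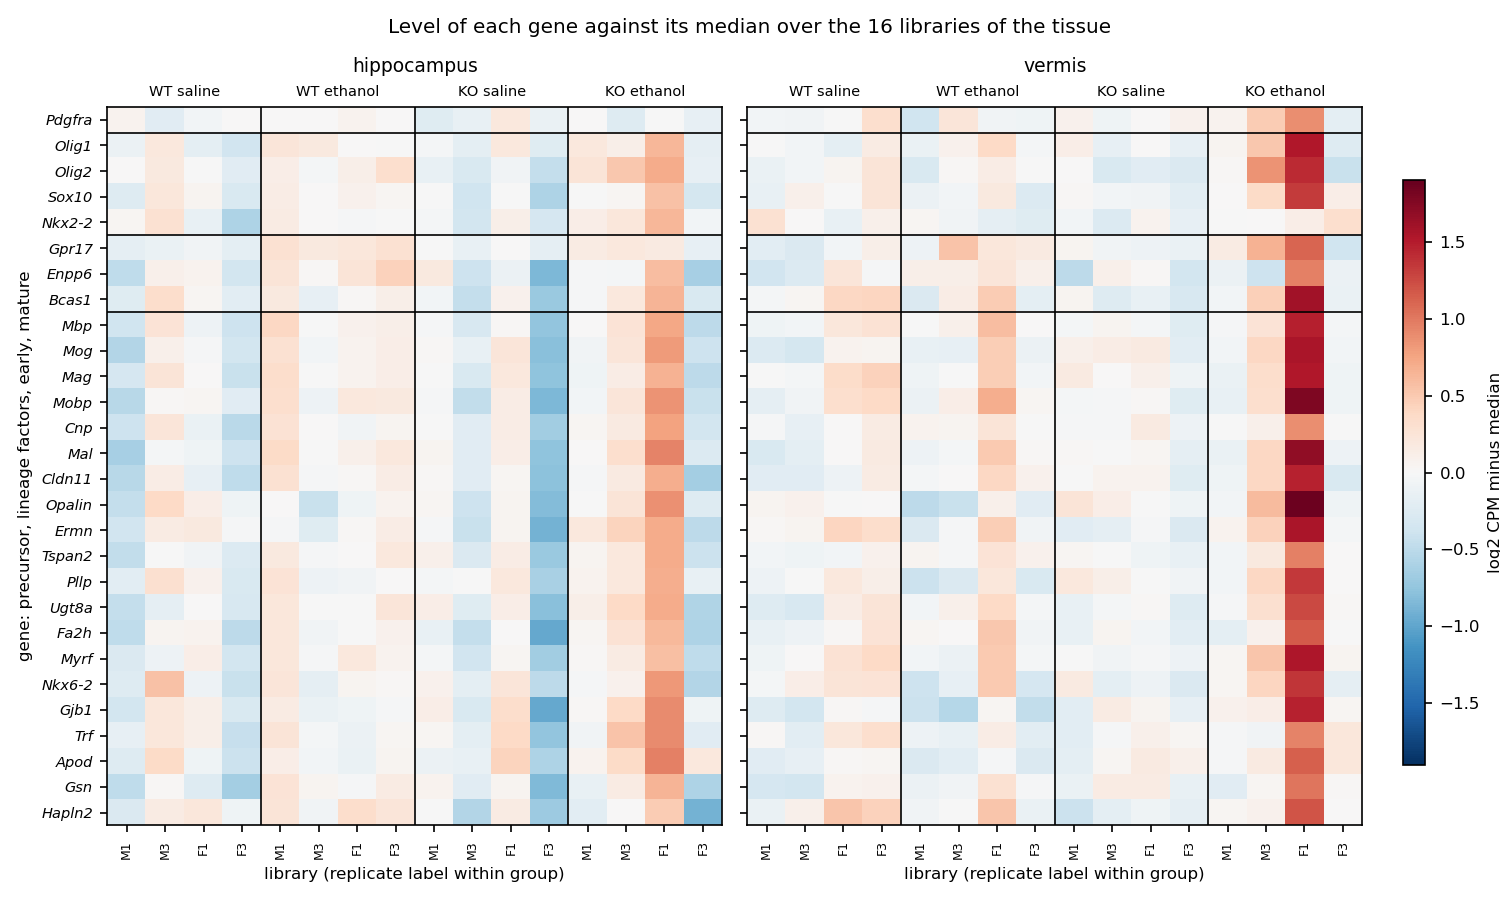
Level of each of the 28 genes (rows, ordered by stage) in each library (columns, by group) as log2 CPM minus the gene's median over the 16 libraries of the region; red is above and blue below the median. Ethanol-exposed KO F1 is the reddest column in both regions, with 27 of 28 genes at their highest in vermis and 26 in hippocampus, and saline-exposed KO F3 is the bluest in hippocampus, with 22 of 28 at their lowest.

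Values in each library show these patterns for the gene of each stage with the highest mean CPM, in the order M1, M3, F1 and F3. Mbp in hippocampus measured 2662, 4115, 3226 and 2612 CPM in saline-exposed WT, 4524, 3413, 3639 and 3732 in ethanol-exposed WT, 3375, 2788, 3493 and 2045 in saline-exposed KO, and 3479, 4106, 5725 and 2448 in ethanol-exposed KO. The 4 groups overlapped, and the highest and the lowest library were both from KO females. In vermis Mbp measured 1725, 1760.2, 2116 and 2204 CPM in saline-exposed WT, 1822, 1957, 2754 and 1828 in ethanol-exposed WT, 1782, 1888, 1784 and 1557 in saline-exposed KO, and 1804, 2176, 5101 and 1773 in ethanol-exposed KO. Apart from F1 in the last group, and to a lesser degree F1 in ethanol-exposed WT, the vermis libraries lay close together.

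Bcas1 in hippocampus measured 194, 289, 234 and 199 CPM in saline-exposed WT, 261, 206, 232 and 246 in ethanol-exposed WT, 220.5, 166, 243 and 139.9 in saline-exposed KO, and 225, 263, 357 and 187 in ethanol-exposed KO. In vermis it measured 114, 120.5, 154 and 156 CPM, then 97.4, 129, 165 and 104, then 121, 99.2, 106 and 95.4, and 113, 160.1, 356 and 108 in the same order of groups. As for Mbp, the groups overlapped in hippocampus and 1 library carried the vermis range.

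Olig1, a lineage factor needed for oligodendrocyte maturation, measured 119, 147, 112 and 98.7 CPM in saline-exposed WT hippocampus, 149.8, 145, 128 and 127 in ethanol-exposed WT, 124, 113, 146 and 109 in saline-exposed KO, and 146, 137, 197 and 113 in ethanol-exposed KO. In vermis it measured 59.5, 57.3, 52.2 and 66.4 CPM, then 54.9, 63.0, 77.7 and 58.4, then 65.2, 53.3, 59.9 and 53.4, and 61.7, 85.2, 172 and 50.3. Its hippocampal values varied less than those of Mbp, with a highest to lowest ratio of 2.00 against 2.80.

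Pdgfra measured 60.4, 49.6, 55.7 and 57.6 CPM in saline-exposed WT hippocampus, 57.8, 57.9, 60.0 and 57.8 in ethanol-exposed WT, 49.1, 52.2, 66.2 and 52.8 in saline-exposed KO, and 57.7, 48.6, 57.4 and 51.4 in ethanol-exposed KO. In vermis it measured 18.2, 18.1, 18.8 and 23.6 CPM, then 14.5, 22.2, 18.0 and 17.9, then 20.1, 17.8, 19.0 and 20.1, and 19.8, 26.5, 34.7 and 16.6. In the hippocampus of ethanol-exposed KO F1, where the mature genes were at their highest, Pdgfra was near the median of the 16 libraries.

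The first comparison asked whether prenatal ethanol was followed by other levels of these genes in WT hippocampus. Most members were somewhat higher after ethanol, but none passed. Of the 28, 26 had positive log2 fold changes, with a median of 0.24 over the 20 mature genes against 0.0087 over all 23394 genes tested. With edgeR's quasi-likelihood test 0 of 28 passed at a false discovery rate of 0.05, where 0% of all genes passed, and 1 had an unadjusted p under 0.05. DESeq2 called 1, Gpr17, and 0.695% of the genes it gave an adjusted p.

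Gpr17 was the member with the smallest p. It measured 68.7, 70.4, 74.0 and 67.6 CPM in the saline-exposed WT libraries M1, M3, F1 and F3. After ethanol it measured 94.1, 87.5, 89.2 and 94.2 CPM. All 4 ethanol values lay above all 4 saline values, and the spread within each group was small beside the gap. The log2 fold change was 0.38 ± 0.077 (SE), with an edgeR adjusted p = 0.208 and a DESeq2 adjusted p = 0.00928. The other member whose groups did not overlap was Mal, which makes 2 of 28 where 5.70% of all genes tested had no overlap. It was at 365 ± 68.2 CPM (SD, n = 4) after saline and 493 ± 55.6 after ethanol. Its log2 fold change was 0.43 ± 0.26, and its edgeR adjusted p = 0.613. Pdgfra had nearly level means, 55.8 ± 4.58 and 58.4 ± 1.07 CPM, and Mbp measured 3154 ± 699 and 3827 ± 484 CPM with overlapping libraries.

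In KO hippocampus ethanol was followed by higher values of 27 of 28 members, Pdgfra being the exception at a log2 fold change of -0.03. The median was 0.38 over the 20 mature genes, all of them positive, against 0.0093 over all genes. None passed in edgeR, where 0.0513% of all genes passed, 3 members had an unadjusted p under 0.05, and DESeq2 called 1 member and 0.524% of all genes. That member was Olig2, the basic helix-loop-helix factor of the whole lineage. It measured 32.1, 29.2, 33.9 and 26.0 CPM after saline in M1, M3, F1 and F3, and 42.0, 50.4, 57.7 and 31.95 CPM after ethanol. In the ethanol group F3 fell inside the saline range and the other 3 lay above it. The log2 fold change was 0.59 ± 0.16 (SE), with an edgeR adjusted p = 0.306 and a DESeq2 adjusted p = 0.0387. No member had groups without overlap, where 4.78% of all genes had.

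The size of this hippocampal difference depended on single libraries. Without ethanol-exposed KO F1 the mature median fell to 0.12, 23 of 28 members were positive, and Olig2 had a log2 fold change of 0.42 with an edgeR adjusted p = 0.625. Without ethanol-exposed KO F3 the median was 0.55, and 1 member passed, Olig2 (log2 0.74, edgeR adjusted p = 0.0462), where 0.0795% of all genes passed. Without saline-exposed KO F3 the median was 0.22, 27 of 28 members were positive, and Olig2 was at 0.51 (edgeR adjusted p = 0.585). Without the filter on low counts 9 members passed in WT and 22 in KO, all of them higher after ethanol, where 1.56% and 2.38% of all genes passed. The exposure and genotype comparisons share groups with each other, so each is given by its own values and they are not independent.

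KO against WT showed no call in hippocampus in either exposure. After saline 10 of 28 members were positive, the mature median was -0.07, 0 passed in edgeR (0.00427% of all genes did), 0 had an unadjusted p under 0.05 and DESeq2 called 0. Olig2 had the smallest p (log2 -0.23 ± 0.16 SE, edgeR adjusted p = 0.741). The median was 0.12, with 21 of 28 positive, without saline-exposed KO F3, the library with the lowest mature mean. No member had groups without overlap, where 4.66% of all genes had. After ethanol 22 of 28 were positive, the mature median was 0.12, 0 passed (0.171% of all genes did), and again 0 had an unadjusted p under 0.05 and DESeq2 called 0. Gpr17 had the smallest p there (log2 -0.14 ± 0.077, edgeR adjusted p = 0.595). Pdgfra was lower in all 4 ethanol-exposed KO libraries (48.6 to 57.7 CPM) than in all 4 ethanol-exposed WT libraries (57.8 to 60.0 CPM), the single member of 28 whose groups did not overlap, by a gap under 0.1 CPM, where 6.36% of all genes had no overlap. Its log2 fold change was -0.11 ± 0.084 with an edgeR adjusted p = 0.715. Leaving out ethanol-exposed KO F1 turned the mature median of this comparison to -0.16, with 7 of 28 positive.

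The interaction asks whether the ethanol difference itself differed between KO and WT. In hippocampus the mature median was 0.15, 0 of 28 passed (0.175% of all genes did), 0 had an unadjusted p under 0.05 and DESeq2 called 0. Olig2 had the smallest p (0.46 ± 0.22, edgeR adjusted p = 0.533). The median was -0.16 without ethanol-exposed KO F1 and -0.016 without saline-exposed KO F3.

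**Figure D3:**
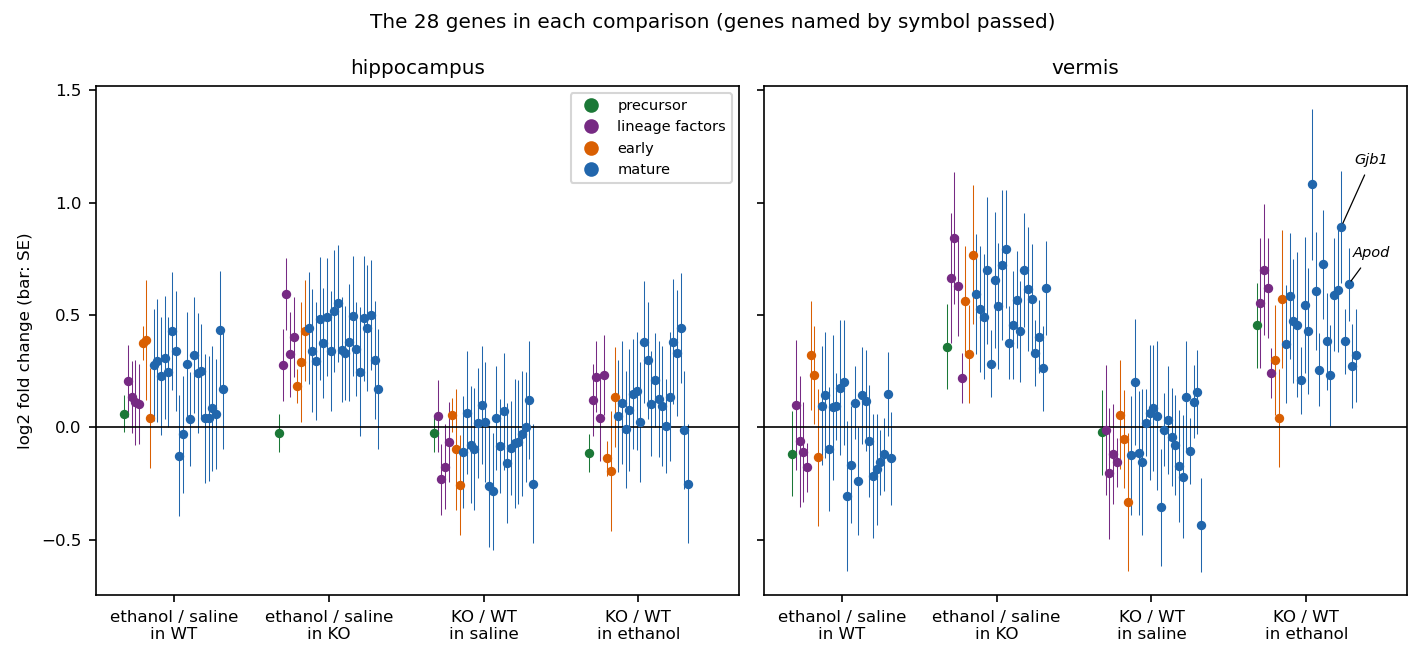
Log2 fold change of each of the 28 genes (points, coloured by stage, in the order of the list within each column) with its SE (bars) in the 4 comparisons of exposure and genotype (horizontal axis), for hippocampus (left) and vermis (right). All 28 points lie above 0 in the ethanol comparison of KO vermis and in the genotype comparison after ethanol in vermis, and Gjb1 and Apod are the only genes that passed.

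In WT vermis the members lay on both sides of their saline levels after ethanol. The mature median was 0.01, 13 of 28 members were positive, 0 passed in edgeR (0.00446% of all genes did), 0 had an unadjusted p under 0.05 and DESeq2 called 0. Nkx2-2 had the smallest p, at 9.39 ± 1.20 CPM in saline-exposed and 8.33 ± 0.668 in ethanol-exposed libraries (SD, n = 4), with a log2 fold change of -0.18 ± 0.11 (SE) and an edgeR adjusted p = 0.928. No member had groups without overlap, where 4.88% of all genes had. The median was -0.068 without ethanol-exposed WT F1 and 0.092 without ethanol-exposed WT F3.

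In KO vermis all 28 members were higher after ethanol, with a mature median of 0.55 against 0.0034 over all 22441 genes tested. None passed in edgeR, where 0.0891% of all genes passed. At an unadjusted p under 0.05 there were 16 members, and the share of all genes at that cutoff is not given. DESeq2 called 0. Ermn, a cytoskeletal protein of the myelin sheath, had the smallest p (log2 0.79 ± 0.26 SE, edgeR adjusted p = 0.330). It measured 38.8, 40.1, 44.3 and 37.3 CPM after saline in M1, M3, F1 and F3, and 47.0, 60.8, 132 and 43.8 CPM after ethanol, so F3 overlapped the saline group. The groups did not overlap for 2 members, Myrf and Hapln2, a link protein of the nodes of Ranvier, where 5.27% of all genes had no overlap. Myrf measured 35.5 to 37.9 CPM after saline and 39.0, 54.7, 109.9 and 39.4 CPM after ethanol in M1, M3, F1 and F3. Hapln2 measured 13.6 to 17.2 CPM after saline and 18.5, 19.3, 41.7 and 18.2 CPM after ethanol.

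In each of these genes F1 lay far above M1, M3 and F3. Without ethanol-exposed KO F1 the mature median fell to 0.13, 26 of 28 members were positive, 3 had an unadjusted p under 0.05 and 0 passed. Ermn was then at a log2 fold change of 0.38 (edgeR adjusted p = 0.767). Without ethanol-exposed KO F3, the shallowest library, the median was 0.72 and 4 members passed, Olig2, Gpr17, Ermn and Hapln2, where 2.68% of all genes passed. Without saline-exposed KO F3 the median was 0.45 and 0 passed.

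KO against WT in saline-exposed vermis gave no call among the members although 4.91% of all genes passed. The mature median was -0.03, 10 of 28 were positive, 0 had an unadjusted p under 0.05 in edgeR and DESeq2 called 0. Hapln2 had the smallest p, at 21.7 ± 4.37 CPM in WT and 15.7 ± 1.52 in KO (log2 -0.44 ± 0.21 SE, edgeR adjusted p = 0.376). Ermn was lower in all 4 KO libraries (37.3 to 44.3 CPM) than in all 4 WT libraries (45.5 to 59.6 CPM), and had a log2 fold change of -0.36 ± 0.26 and an edgeR adjusted p = 0.649. It was the 1 member of 28 without overlap, where 13.0% of all genes had none. The mature median was 0.033 without saline-exposed KO F3. In a fit of these 2 groups alone 2 members passed, both lower in KO, Ermn and Hapln2 (edgeR adjusted p = 0.0116 for Hapln2), where 6.07% of all genes passed.

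KO against WT in ethanol-exposed vermis was the comparison of exposure or genotype with calls among the members. All 28 were higher in KO, with a mature median of 0.46 against 0.032 over all genes, and 2 of 28 passed in edgeR, both higher, where 7.53% of all genes passed. The share of members that passed is near that background. Of the 28, 12 had an unadjusted p under 0.05, a cutoff for which the share of all genes is not given. DESeq2 called 5, adding Sox10, Opalin and Pllp, a myelin membrane protein, where it called 15.2% of all genes.

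Apod, apolipoprotein D, a lipid carrier made by myelinating glia (chromosome 16, 31115010 to 31133626, minus strand, GRCm39), passed. It measured 91.1, 95.8, 109 and 91.0 CPM in ethanol-exposed WT libraries M1, M3, F1 and F3, and 109, 124, 242 and 128 CPM in the KO libraries. No KO library lay below a WT library, with WT F1 and KO M1 nearly level, and Apod was the 1 member of 28 without overlap, where 12.7% of all genes had none. The log2 fold change was 0.64 ± 0.16 (SE), with an edgeR adjusted p = 0.0297. Without ethanol-exposed KO F1 it was 0.37 with an edgeR adjusted p = 0.00513. Over the 16 fits that each left out 1 library it ran from 0.37 to 0.73 and passed in 10. It did not pass without saline-exposed WT M3, ethanol-exposed WT M1, F1 or F3, saline-exposed KO F3 or ethanol-exposed KO M3. Which cells of the piece gave the Apod counts was not tested.

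Gjb1 (chromosome X, 100419984 to 100429235, plus strand, GRCm39) was the other member that passed. It measured 10.2, 9.25, 13.9 and 9.79 CPM in ethanol-exposed WT libraries M1, M3, F1 and F3, and 14.3, 14.7, 37.2 and 13.8 CPM in the KO libraries. KO F3 lay just below WT F1, so the groups overlapped, and KO F1 was 2.80-fold above the median of the other 15 libraries. The log2 fold change was 0.89 ± 0.25 (SE), with an edgeR adjusted p = 0.0451. Without ethanol-exposed KO F1 it was 0.46 with an edgeR adjusted p = 0.0578, and over the 16 fits that each left out 1 library it ran from 0.46 to 1.05 and passed in 3, those without saline-exposed KO M3, ethanol-exposed KO M1 and ethanol-exposed KO F3.

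Among members that missed the threshold, Opalin had the largest log2 fold change, 1.08 ± 0.34 (SE), with an edgeR adjusted p = 0.0700. Its KO values were 8.92, 14.0, 33.6 and 8.71 CPM in M1, M3, F1 and F3, against 6.50, 6.84, 9.84 and 7.90 CPM in WT, so only M3 and F1 lay above all WT libraries. Pdgfra measured 18.1 ± 3.15 CPM in WT and 24.4 ± 8.03 in KO (log2 0.45 ± 0.19, edgeR adjusted p = 0.158), and Mbp 2090 ± 447 and 2714 ± 1602. The mature median fell to 0.037 without ethanol-exposed KO F1, 19 of 28 members were positive and 1 passed, where 5.01% of all genes did. Without ethanol-exposed KO F3 the median was 0.65 and 13 members passed, where 22.2% of all genes did, and without saline-exposed KO F3 the median was 0.44 and 0 passed. Without the sex term, without the low-count filter or with these 2 groups alone, 0 passed. The markers of granule and Purkinje neurons, microglia and brainstem given above for KO F1 move with these values, and their part was not tested. In ethanol-exposed vermis the 10 fibroblast and meninges markers averaged 3.3185 log2 CPM in KO and 2.702 in WT (SD 0.373 and 0.426). In saline-exposed vermis these markers averaged 3.3467 in KO and 2.789 in WT (SD 0.169 and 0.0841). The part of fibroblasts and meninges in the differences of Apod and the other members was not tested.

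The interaction in vermis had a mature median of 0.51, with all 28 members positive. In edgeR 0 passed (0.107% of all genes did), and 9 had an unadjusted p under 0.05. The median over all genes and the share of all genes under that cutoff are not given. DESeq2 called 0. Nkx2-2 had the smallest p (0.40 ± 0.16, edgeR adjusted p = 0.389). Without ethanol-exposed KO F1 the mature median was 0.13, with 20 of 28 positive, and Nkx2-2 was at 0.39 (edgeR adjusted p = 0.538). Without saline-exposed KO F3 the median was 0.46, with 27 positive.

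Sex was balanced in every group and could be compared over 8 females and 8 males in each region. In vermis 27 of 28 members were higher in females, with a mature median of 0.32. The median over all genes is not given for this comparison. In edgeR 0 passed (0.0535% of all genes did), 4 had an unadjusted p under 0.05 and DESeq2 called 0. Trf had the smallest p (log2 0.32 ± 0.10 SE, edgeR adjusted p = 1.00). Of the 28, 22 were higher without ethanol-exposed KO F1, a female. In hippocampus 13 of 28 were higher in females, 0 passed (0.0769% of all genes did), 0 had an unadjusted p under 0.05 and DESeq2 called 0, with the smallest p at Pdgfra (log2 0.09 ± 0.060, edgeR adjusted p = 0.730). There 1 of 28 was higher without ethanol-exposed KO F1 and 23 without ethanol-exposed KO F3.

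The contrast with the most calls was that of the regions within mouse. Of 28 members 24 were lower in vermis than in hippocampus and 2 were higher, where 72.6% of all 24458 genes tested passed in edgeR with mouse as a block, 38.0% as lower and 34.6% as higher. The counts were also 24 and 2 without the mouse KO ethanol F1 and without the mouse KO saline F3. Pdgfra was lower by a log2 fold change of -1.48 ± 0.069 (SE, edgeR adjusted p = 1.15e-11). It measured 14.5 to 34.7 CPM in vermis (median 18.9) and 48.6 to 66.2 in hippocampus (median 57.5), with no overlap between the regions. Among the early genes Gpr17 was lower by -1.54 ± 0.075, Enpp6 by -0.97 ± 0.089 and Bcas1, a protein of premyelinating processes, by -0.79 ± 0.091.

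Lineage factors did not share 1 direction between regions. Olig1 (-1.01 ± 0.079 SE), Olig2 (-1.08 ± 0.073) and Sox10 (-0.98 ± 0.060) were lower in vermis, and Nkx2-2 was higher (0.74 ± 0.068, edgeR adjusted p = 2.81e-08). Nkx2-2 measured 7.45 to 11.1 CPM in vermis and 3.52 to 8.27 in hippocampus, where only ethanol-exposed KO F1 reached the vermis range.

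Mature members covered a wide range of differences. The largest falls were those of Opalin (-1.60 ± 0.087 SE) and Mal (-1.59 ± 0.080), followed by Cldn11 (-1.29 ± 0.079) and Mobp (-1.15 ± 0.088). Mbp (-0.72 ± 0.084), Mog (-0.94 ± 0.078) and Mag (-0.87 ± 0.090), proteins of compact myelin, the outer sheath surface and the sheath next to the axon, were lower by less. The lipid enzymes Ugt8a, which makes galactosylceramide (-0.76 ± 0.079), and Fa2h, which hydroxylates its fatty acid (-0.70 ± 0.094), were close to Mbp, as were the transcription factors Myrf (-0.91 ± 0.070) and Nkx6-2 (-0.74 ± 0.083). Tspan2 (-0.77 ± 0.058), Pllp (-0.73 ± 0.077), Ermn (-0.92 ± 0.082), Gsn (-0.84 ± 0.087) and Cnp (-0.58 ± 0.068) lay in the same range, and Hapln2 had the smallest fall that passed (-0.30 ± 0.080, edgeR adjusted p = 0.00294).

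A few mature members stood outside this pattern. Apod was higher in vermis (0.28 ± 0.073 SE, edgeR adjusted p = 0.00259). Trf (0.15 ± 0.10, adjusted p = 0.188) and Gjb1 (0.0032 ± 0.091, adjusted p = 0.978) did not pass. In each fit that left out 1 mouse, 26 or 27 members passed.

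**Figure D4:**
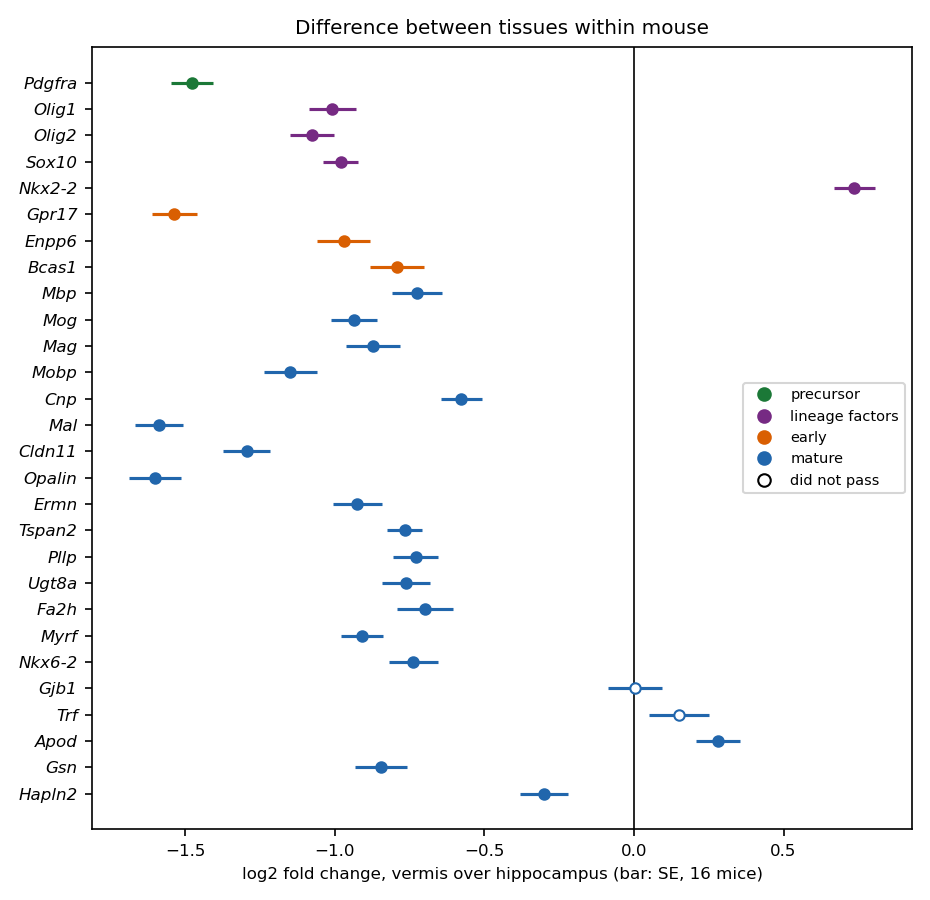
Log2 fold change of vermis over hippocampus within mouse (horizontal axis, bar is the SE, 16 mice) for each of the 28 genes (vertical axis), coloured by stage; open points did not pass. Pdgfra, Gpr17, Mal and Opalin lie near -1.5, most mature genes between -1.3 and -0.5, and Nkx2-2 and Apod to the right of 0.

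The difference between regions of each exposure or genotype effect was tested with mouse as a block, and no member passed. Medians over all genes and shares of all genes at an unadjusted p under 0.05 are not given for these tests. For ethanol in WT all 28 estimates were negative (vermis effect below hippocampal effect, mature median -0.23), with 0% of all genes passing and 0 members at an unadjusted p under 0.05. For ethanol in KO 19 were positive (mature median 0.06), with 0.00409% of all genes passing and 0 members under 0.05. For KO against WT after saline 12 were positive (mature median -0.04), with 3.36% of all genes passing and 0 members under 0.05. For KO against WT after ethanol all 28 were positive (mature median 0.28), with 2.39% of all genes passing and 5 members under 0.05, of which Sox10, a factor needed for myelin gene expression, had the smallest p (0.52 ± 0.17 SE, edgeR adjusted p = 0.137). Without the mouse ethanol-exposed KO F1, 1 member was under 0.05 in this last test, Sox10 was at 0.36 (edgeR adjusted p = 0.396), and for ethanol in KO 9 of 28 were positive. Without the mouse saline-exposed KO F3, 6 members were under 0.05 and Sox10 was at 0.53, while for ethanol in KO 27 were positive and for KO against WT after saline 3 were.

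Other genes of the lineage were followed in lists of 12 further precursor genes, 12 further early genes and 30 further mature genes, with 14 sterol synthesis genes. Between regions 9 of 12 precursor genes passed as lower in vermis and 3 as higher, 8 and 3 of 12 early genes, and 24 and 3 of 30 mature genes. The smallest p-values among them were those of Matn4 (log2 -1.72) and Ptprz1 (0.68) in the precursor list, Rras2 (-1.76) and Sema5a (-1.97) in the early list, and Jam3 (-0.90) and Gamt (-0.74) in the mature list. Of the sterol genes, which make the cholesterol of membranes, 12 of 14 passed as lower and 1 as higher. Within regions 2 genes of these lists passed, both for KO against WT in ethanol-exposed vermis, where 7.53% of all genes passed. They were the precursor gene Vcan (-0.31, edgeR adjusted p = 0.0467), a matrix proteoglycan, and the mature gene Qdpr (0.79, edgeR adjusted p = 0.0434).

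Across the 16 hippocampal libraries the 3 early members followed the mature members closely (Pearson r = 0.947, Spearman rho = 0.868, n = 16), as did the lineage factors (r = 0.925, rho = 0.906). Pdgfra did not (r = 0.12, rho = -0.0412). The 12 further precursor genes (r = 0.412, rho = 0.262) and the 12 further early genes (r = 0.416, rho = 0.468) did not to the same degree. Without the 2 libraries farthest from the median r was 0.910 for the early genes, 0.841 for the lineage factors and 0.292 for Pdgfra. With every group centred on its mean the 3 values of r over all 16 libraries were 0.975, 0.917 and 0.128. In vermis r was 0.939 for the early genes, 0.934 for the lineage factors and 0.787 for Pdgfra, but without the 2 farthest libraries, ethanol-exposed KO F1 among them each time, it was 0.657, 0.613 and 0.240. With groups centred the vermis values were 0.960, 0.923 and 0.740, and 0.875, 0.749 and 0.380 without the 2 farthest. The vermis relation of Pdgfra therefore rests on those libraries, and those of the 3 early genes and the lineage factors were lower without them. For the 12 further early genes r in vermis was 0.636, and -0.274 without ethanol-exposed KO F1 and M3. These values share libraries and scaling, come from 37 relations computed in all, and are given as descriptions.

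Levels of the mature genes also ran with markers of other cells in the piece. In hippocampus r was -0.705 with 10 dentate granule neuron markers (rho = -0.588, and r = -0.693 without the 2 farthest libraries), 0.67 with 10 choroid plexus markers (rho = 0.606, and 0.427), 0.646 with the ependyma markers (rho = 0.612, and 0.661), 0.592 with 10 striatal markers (rho = 0.529, and 0.463) and 0.566 with the neocortical markers (rho = 0.374, and 0.606). The choroid plexus markers summed to 36.9 to 3358 CPM over the hippocampal libraries, with none at 0. In vermis r was -0.929 with 10 Purkinje markers (rho = -0.603, and -0.577 without the 2 farthest), -0.885 with 10 granule neuron markers (rho = -0.426, and -0.214), 0.765 with 10 microglia markers (rho = 0.282, and -0.042), 0.598 with the brainstem and deep nuclei markers (rho = 0.479, and 0.164) and 0.569 with the choroid plexus markers (rho = 0.321, and 0.329). Astrocyte markers showed little relation in either region (r = -0.0139 and -0.00186). The mature means of the 2 regions of the same mouse had r = 0.620 (rho = 0.324), and r = 0.0499 without ethanol-exposed KO F1 and saline-exposed KO F3, so this relation rests on those 2 mice. The part of the makeup of the piece in the levels was not tested.

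**Figure D5:**
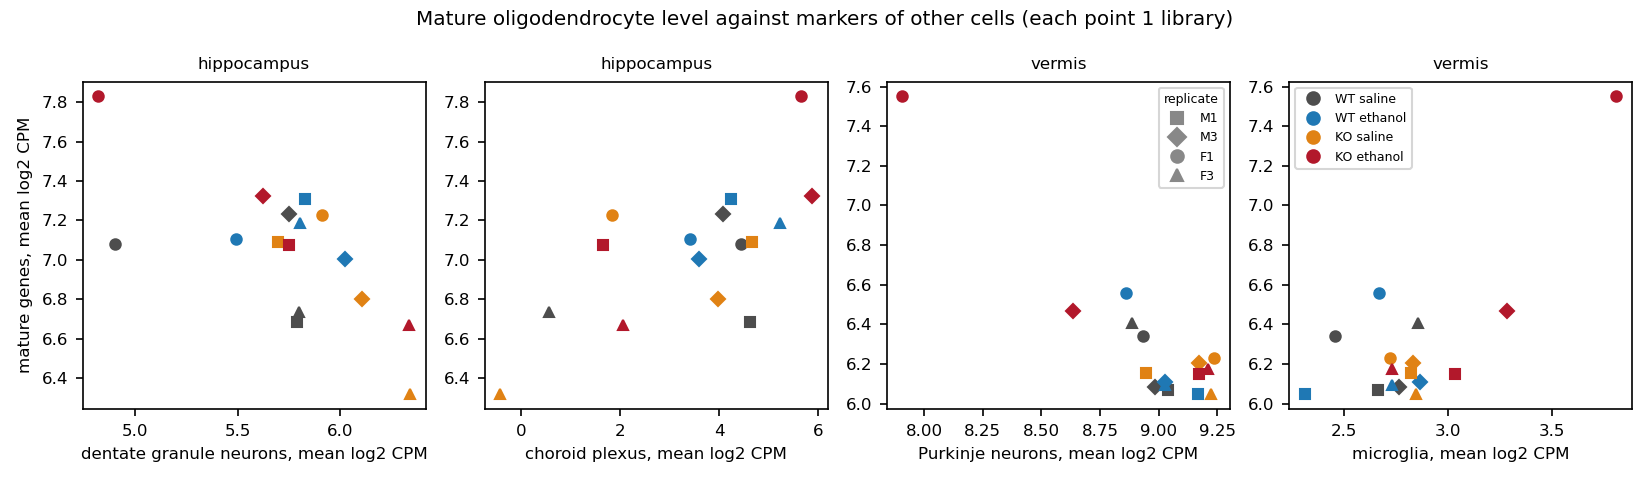
Mean log2 CPM of the 20 mature genes (vertical axis) against the mean log2 CPM of marker genes of another cell type (horizontal axis) for 2 lists in hippocampus and 2 in vermis; each point is 1 library, its colour gives the group and its shape the replicate label. In vermis 1 point, ethanol-exposed KO F1 at a mature mean of 7.55, lies apart from the other 15, and in hippocampus the points fall with the dentate granule markers (r = -0.705).

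Transcript models of Mbp separated the myelin transcripts from the long upstream unit of this gene. The transcript table counts a read for each model it overlaps, so models that share exons have nearly the same counts, as Mbp-201 and Mbp-215 have. Mbp-215, which begins at the myelin start, measured 1523 to 5061 CPM in vermis, a ratio of 3.32, with the highest value in ethanol-exposed KO F1. Mbp-208 begins 79322 bases upstream, and 0 of its 3 exons overlap an exon of Mbp-215 in GENCODE vM21 (GRCm38). It measured 1.86 to 2.99 CPM in vermis and 1.94 CPM (111 counts) in ethanol-exposed KO F1, so it did not share the rise of that library. In hippocampus it measured 2.22 to 4.77 CPM, with 2.65 CPM (160 counts) in ethanol-exposed KO F1, where the myelin model was highest. Saline-exposed WT F1 (2.22 CPM) and M3 (2.49 CPM) were lower.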

How the data were processed

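PolyA RNA from dorsal hippocampus and vermis of 16 mice (10 ng input) was sequenced in 1 batch. The deposited values are raw counts per gene and per transcript model, made by the authors with bcl2fastq, cutadapt 5.0, STAR 2.7.10a and featureCounts 2.0.6 on GRCm39, per the submitters' processing notes, which also name DESeq2. Whether counting used strand is not given in the sources used here, so reads of overlapping antisense genes cannot be told apart. In each library 89.4% to 94.2% of gene counts from 2 to 11 were even numbers, so mates of a pair were counted separately and a count is not an independent fragment.

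The members and all gene lists were chosen with earlier results of these data known. Each region was fitted with edgeR 4.0.16 (R 4.3.3, limma 3.58.1): TMM scaling, filterByExpr, 4 groups and sex, and robust quasi-likelihood F tests with Benjamini-Hochberg adjustment over all genes tested at 0.05. Regions were compared over 32 libraries with mouse as a block. Counts of members at an unadjusted p under 0.05 have no share of all genes beside them, so they cannot be set against a background. Many members rose and fell together across libraries, so a count of signs is not a count of separate results. CPM values use TMM-scaled totals over all 32 libraries, log2 CPM adds a prior count of 2, and a standard error is the absolute log2 fold change divided by the square root of F. Alternatives were DESeq2 1.42.0, size factors by RLE, all genes kept, omission of sex, a replicate block, fits of 2 groups and the omission of each library, and DESeq2 was not run on the region comparisons. Genes are named by a rule: all 28 members are accounted for, tests are given for those that passed or otherwise for the member with the smallest p, and for other lists counts and up to 4 passing genes. A gene of the sterol list is not reported here by name. Labels do not say whether mice of a group shared a litter, so p-values measure the spread between these animals. No 2 libraries of a group agreed within sampling noise (smallest chi-square per degree of freedom 9.05 over 48 pairs). Figures were drawn with Python 3.11.15, numpy 2.4.6, scipy 1.17.1 and matplotlib 3.10.9. Promoter windows are from RefSeq and their build, GRCm38.p6, is not that of the counts, so they are matched by symbol only.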

Additional observations from a re-analysis of the deposited data

Results flagged for a closer look

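In each group of 4 libraries the gap of the highest or lowest value to its neighbour was divided by the group's range, on log2 CPM, and set against Dixon's 95% critical value for 4 samples. Of 256 groups of values 12 were above it, and chance flags about 1 in 20 groups.

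In ethanol-exposed KO vermis F1 stood above the other 3 libraries in Gjb1 (0.937 of the range), Hapln2 (0.93) and Cnp (0.873). In ethanol-exposed WT vermis F1 was also the highest, in Enpp6 (0.933), Mog (0.925), Myrf (0.88), Mag (0.865) and the mean of the mature genes (0.884), at a mature mean of 6.56 log2 CPM.

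In saline-exposed WT vermis F3 was the highest in Tspan2 (0.861) and Pdgfra (0.853). In hippocampus Pdgfra was highest in F1 of ethanol-exposed WT (0.919), a group in which it covered only 57.8 to 60.0 CPM, and Gpr17 was lowest in F3 of ethanol-exposed KO (0.888), at 69.2 CPM against 86.2 to 88.6 in the other 3. That library is also the one whose omission raised the ethanol differences of KO hippocampus.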

How the results depend on the processing

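Of 351 recomputed counts of members passing, 323 kept their side of the threshold and stayed within 1.5 times. Counts of 0 that stayed 0 are among these. The count for KO against WT in ethanol-exposed vermis did not keep to this in 14 of the 16 fits without 1 library. Of 190 recomputed medians, 187 stayed within 1 SD. This SD is that of the mature mean between libraries of a group, 0.348 in hippocampus and 0.363 in vermis. A median could change sign within it, as did that of KO against WT in ethanol-exposed hippocampus (0.118, and -0.160 without ethanol-exposed KO F1). None of these values or of the 848 for named members was a reversal of a call. With DESeq2 1 member passed for ethanol in WT hippocampus, 1 for ethanol in KO hippocampus and 5 for KO against WT in ethanol-exposed vermis. Without the low-count filter 9 members passed for ethanol in WT hippocampus and 22 for ethanol in KO hippocampus, where 1.56% and 2.38% of all genes passed. The other hippocampal counts were 1 for KO in saline (Ermn), 4 for KO in ethanol (Opalin, Ermn, Trf and Apod) and 5 for the interaction (Olig2, Bcas1, Opalin, Ermn and Apod). Shares of all genes are not given for these, so they cannot be set against a background. Without this filter the count for KO in ethanol-exposed vermis was 0. That count was also 0 without the sex term and in a fit of the 2 groups alone, where KO in saline-exposed vermis had 2. The cause was not tested.

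When each library was left out in turn, counts ran from 0 to 1 for ethanol in KO hippocampus, from 0 to 4 for ethanol in KO vermis, from 0 to 13 for KO in ethanol-exposed vermis and from 26 to 27 between regions, and were 0 for the others. The mature medians ran, in hippocampus, from 0.14 to 0.34 and 0.12 to 0.55 (ethanol in WT and KO), -0.22 to 0.12 and -0.16 to 0.29 (KO in saline and ethanol) and -0.16 to 0.31 (interaction). In vermis they ran from -0.07 to 0.09, 0.13 to 0.72, -0.10 to 0.03, 0.037 to 0.65 and 0.13 to 0.66.

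The replicate labels M1, M3, F1 and F3 name sex and number, and do not say whether mice shared a litter. Libraries with the same label had r from -0.317 to 0.658 in hippocampus (16620 genes) and from -0.502 to 0.547 in vermis (16185 genes). In each region 7 of 16 libraries correlated best with their own label. The number that chance would give is not stated here, so no shared litter is read from these values. With the replicate block, 0 members passed except 2 for KO in ethanol-exposed vermis, for which the share of all genes is not given. The medians in the same order were 0.27, 0.36, -0.09, 0.05 and 0.10 for hippocampus, then -0.02, 0.49, -0.04, 0.39 and 0.49 for vermis. Depth was least in ethanol-exposed KO F3 of vermis (23085928 counts).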
